A study of Mus musculus with 8 samples.

Results

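The genes of sterol and fatty acid synthesis were followed in mouse embryonic stem cells after knockdown of Fbxl19 and on day 4 of differentiation. The set holds 34 genes, taken from a list of names that was chosen with earlier results of these data known. It covers the enzymes from acetyl-CoA to cholesterol, their regulators, a sterol transfer protein, and the enzymes that make and desaturate fatty acids. A gene was measured where the array's annotation gave it a probe set of its own, and 32 of the 34 were, among 12393 genes tested in all. Acat2 and Insig1 had no such probe set and were not analysed here. Of the 32, 12 had 1 probe set and 20 had several, in which case the brightest over the 8 arrays was used. Acaca alone was dim, at a mean level under the lower quartile on all 8 arrays, and no member was filtered out for low values.

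Cholesterol is built from acetyl-CoA through mevalonate, isoprenoid units and squalene, and the last steps remodel lanosterol into cholesterol in the endoplasmic reticulum. Fatty acid synthesis starts from the same acetyl-CoA, which Acly and Acss2 supply, and Fasn makes palmitate that elongases and desaturases then extend and modify. Both branches are switched on by the transcription factors SREBP-1 and SREBP-2, the products of Srebf1 and Srebf2. Their precursors are carried by Scap from the endoplasmic reticulum to the Golgi and cut there when sterols are scarce, while Insig proteins hold Scap back when sterols are plentiful. In proliferating stem cells the pathway supplies membrane lipids and the isoprenoid anchors of signalling proteins.

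All 4 groups were J1 cells, a mouse embryonic stem cell line, with 2 Affymetrix Mouse 430A 2.0 arrays each. They carried a control hairpin (shControl), one of 2 hairpins targeting Fbxl19 (called shRNA1 and shRNA2), or had been differentiated for 4 days. Cells were grown on gelatin with serum and leukemia inhibitory factor, the cytokine that keeps mouse stem cells undifferentiated. The sources used here give neither the method of differentiation, nor whether day 4 cells carried a hairpin, nor the vector, clonality or length of the knockdown. Groups follow the sample titles, since the description field of some knockdown samples names other Fbxl genes. Whether replicates came from separate cultures is not stated, and the p-values therefore reflect array-to-array spread that may be technical. No probe set was annotated to Fbxl19, an F-box gene whose product has a CXXC domain, and the knockdown itself was therefore not checked.

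Promoter sequences were read for the members because SREBP acts through their promoters, and because these genes were compared as a group. RefSeq promoters of GRCm38.p6, each running from 250 bases before an annotated start to 50 after it, were given for 25 of the 32 members, in 33 windows. Fdps, Fdft1, Sqle, Stard4, Scd1, Scd2 and Fads1 had no entry. The 6 windows printed here are a selection: those of Hmgcs1, Cyp51, Hsd17b7, Fasn, Tm7sf2 and Acss2. They were not ranked by size of change. Capitals mark matches, on either strand, to a sterol regulatory element (SRE, TCACNCCAC), a shorter form of it (TCACCNCA, which overlaps the first), an E-box, spelled CACGTG, the CCAAT box of those letters, and a GC box, spelled GGGCGG.
Hmgcs1 promoter, chr13:119690101-119690400, plus strand: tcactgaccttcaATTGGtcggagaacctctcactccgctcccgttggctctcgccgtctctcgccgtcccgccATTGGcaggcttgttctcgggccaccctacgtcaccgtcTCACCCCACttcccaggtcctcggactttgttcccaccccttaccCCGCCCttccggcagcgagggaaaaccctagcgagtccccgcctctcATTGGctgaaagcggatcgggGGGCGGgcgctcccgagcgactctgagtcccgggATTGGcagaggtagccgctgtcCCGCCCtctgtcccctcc
Cyp51 promoter, chr5:4104648-4104947, minus strand: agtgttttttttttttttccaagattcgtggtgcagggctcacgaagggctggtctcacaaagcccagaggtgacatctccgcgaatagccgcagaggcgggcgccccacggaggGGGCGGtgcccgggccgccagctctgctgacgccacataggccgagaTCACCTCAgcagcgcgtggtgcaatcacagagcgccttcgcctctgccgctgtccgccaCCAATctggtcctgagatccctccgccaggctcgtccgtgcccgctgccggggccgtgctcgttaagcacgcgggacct
Hsd17b7 promoter, chr1:169969156-169969455, minus strand: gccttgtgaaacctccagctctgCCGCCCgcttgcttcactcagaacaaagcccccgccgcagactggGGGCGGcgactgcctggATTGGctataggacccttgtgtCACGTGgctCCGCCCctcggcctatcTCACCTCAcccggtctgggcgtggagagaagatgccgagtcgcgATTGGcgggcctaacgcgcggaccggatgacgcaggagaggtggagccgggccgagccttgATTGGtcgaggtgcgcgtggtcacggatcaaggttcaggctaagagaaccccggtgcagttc
Fasn promoter, chr11:120824498-120824797, minus strand: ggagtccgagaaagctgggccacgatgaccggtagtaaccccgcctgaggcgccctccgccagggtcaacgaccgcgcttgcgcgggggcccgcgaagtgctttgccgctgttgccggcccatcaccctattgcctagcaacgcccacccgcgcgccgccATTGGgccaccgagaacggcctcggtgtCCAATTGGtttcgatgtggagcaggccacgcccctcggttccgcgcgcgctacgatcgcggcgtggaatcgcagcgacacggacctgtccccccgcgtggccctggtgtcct
Tm7sf2 promoter, chr19:6067801-6068100, minus strand: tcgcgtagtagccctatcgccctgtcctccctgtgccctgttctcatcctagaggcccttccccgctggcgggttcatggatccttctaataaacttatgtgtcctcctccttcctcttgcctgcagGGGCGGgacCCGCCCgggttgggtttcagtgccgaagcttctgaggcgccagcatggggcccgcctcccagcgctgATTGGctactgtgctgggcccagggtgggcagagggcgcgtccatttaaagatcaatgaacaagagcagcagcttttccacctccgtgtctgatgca
Acss2 promoter, chr2:155517793-155518092, plus strand: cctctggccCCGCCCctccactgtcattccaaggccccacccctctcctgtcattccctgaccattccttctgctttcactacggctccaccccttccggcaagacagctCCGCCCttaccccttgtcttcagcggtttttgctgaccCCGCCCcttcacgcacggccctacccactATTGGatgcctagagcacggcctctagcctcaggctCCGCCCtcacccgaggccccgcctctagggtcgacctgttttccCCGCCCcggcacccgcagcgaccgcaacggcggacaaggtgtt

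The long SRE letters occurred in 1 of the 33 member windows, that of Hmgcs1, against 1.22% of the 12566 promoter windows of genes on the array. The shorter form occurred in 4 windows (12.1%, against 4.04%), those of Hmgcs1, Cyp51, Hsd17b7 and Srebf2. It was chosen after the members' promoters had been read. The windows of Idi1 and Sc5d, whose knockdown arrays lay below both controls, held neither form and are not printed. CCAAT boxes, the binding letters of NF-Y, were found in 22 windows (66.7%, against 37.1%). GC boxes, the binding letters of Sp1, were found in 24 (72.7%, against 55.4%) and E-boxes in 5 (15.2%, against 9.11%). The CXXC domain of Fbxl19 binds unmethylated CpG, and the members' windows had a median observed over expected CpG of 0.741, where promoters of genes on the array had 0.685. Of the member windows 22 (66.7%) lay above 0.6 by this measure, as did 58.4% of all promoter windows of genes on the array. Windows of 1 gene can overlap, and a match is only a run of letters.

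Levels are log2 values as deposited by the authors, and changes are differences between group means on that scale, with the standard error (SE) of a model fitted to all genes and arrays. A gene was called where its Benjamini-Hochberg adjusted p over all 12393 genes was under 0.05. Replicate 2 of shControl had quartiles of 3.79, 5.81 and 8.18, and the medians of the other arrays were 5.70 to 5.76. The difference between 3' and 5' actin control probe sets, a sign of RNA integrity, was 0.54 and 0.60 in shControl. It was 0.70 to 0.76 under knockdown, and day 4 had 0.65 and 0.73. The same difference for Gapdh overlapped between groups, at 0.17 and 0.26 in shControl, 0.18 to 0.27 under knockdown and 0.20 and 0.26 on day 4. Markers of pluripotent cells had a mean level of 11.7 to 11.8 on the 6 undifferentiated arrays, none of the 8 markers being dim, and of 10.7 and 10.2 on day 4. In these bulk samples, fewer cells of a type and less RNA per cell cannot be told apart.

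With both hairpins averaged, no member was called against shControl, where 9 of all genes (0.0726%) were. The members nonetheless had a median change of -0.16, beside -0.0042 over all genes. Of the 32 members, 25 lay below 0 (78.1%), against 50.9% of all genes. All 4 knockdown arrays lay below both control arrays for 12 members (37.5%), against 10.6% of all genes, and above them for 2 (6.25%), against 9.53%. At an unadjusted p under 0.05 there were 9 members, 8 of them lower, and 8.42% of all genes. These counts describe the members and are not a test of the list.

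Relative to the shControl mean, the members' median was -0.017 and 0.017 on the control arrays and -0.25 and -0.31 on the shRNA1 arrays. It was -0.045 and -0.10 on the shRNA2 arrays. The shRNA1 arrays lay well below the control arrays. The shRNA2 arrays lay below them by less, with replicate 1 nearer to the lower control array than the pooled SD of this median between replicate arrays, 0.057. The shRNA1 and shRNA2 arrays did not overlap. The same quantity over all genes stayed between -0.041 and 0.041 on every array. The actin 3'-to-5' difference also separated the control arrays from the knockdown arrays, with 0.71 and 0.70 for shRNA1 and 0.73 and 0.76 for shRNA2. That of Gapdh overlapped between groups. The part of RNA integrity in these values was not tested. The mean level of the 6 trophoblast markers also differed, at 5.08 and 4.90 in shControl and 5.28 to 5.48 under knockdown, Elf5 being dim throughout. The single markers were mixed. With both hairpins averaged 4 lay above 0 and 2 below, from -0.18 to 1.30. All knockdown arrays lay above both controls for 3 markers, against 9.53% of all genes, and overlapped them for 3. The 6 primitive endoderm markers had a mean level of 4.11 and 4.16 in shControl and 3.87 to 4.04 under knockdown, Gata4 and Pdgfra being dim throughout. Of these 5 lay below 0 and 1 above, and all knockdown arrays lay below both controls for 2, against 10.6% of all genes. The mesendoderm, neural and fibroblast lists overlapped between control and knockdown. The part of these markers was not tested either.

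**Figure D1:**
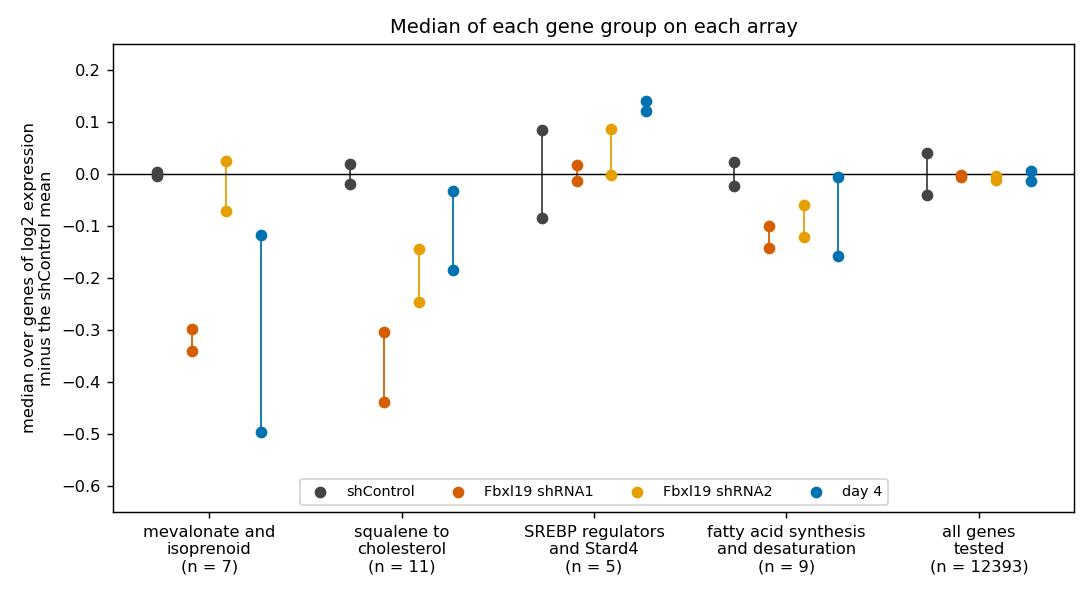
The median over the genes of each of the 4 role groups, and over all 12393 genes, is plotted for each array as a difference from the shControl mean in log2 units; points are single arrays and lines join the 2 arrays of a group. The squalene to cholesterol enzymes lie at -0.30 and -0.44 with shRNA1 and -0.14 and -0.25 with shRNA2, and the medians over all genes stay between -0.041 and 0.041.

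Among the enzymes that turn acetyl-CoA into mevalonate and isoprenoid units, 7 were measured, and 5 lay below 0 with both hairpins averaged (median -0.16). Idi1, which interconverts the isoprenoid building blocks, had levels of 10.78 and 10.60 in shControl, 10.11 and 9.69 with shRNA1 and 10.60 and 10.34 with shRNA2. Its knockdown arrays lay below both control arrays, narrowly with shRNA2 replicate 1. The change was -0.50 ± 0.16 with both hairpins (limma adjusted p = 0.460) and -0.79 ± 0.19 with shRNA1 (adjusted p = 0.197). Hmgcs1, the synthase that commits acetyl units to HMG-CoA, had levels of 11.17 and 11.16 in shControl, 10.87 and 10.76 with shRNA1 and 11.25 and 11.14 with shRNA2. It was lower on both shRNA1 arrays, while the shRNA2 arrays lay on either side of the controls.

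Probe sets of Hmgcs1 disagreed on the mean of both hairpins: the one used had -0.16, and the other 3 had 0.17, 0.16 and -0.33. The second probe set of Idi1 had -0.14. Pmvk, phosphomevalonate kinase, lay the other way. Its levels were 8.06 and 8.48 in shControl, 8.50 and 8.69 with shRNA1 and 8.41 and 8.55 with shRNA2, so that the gap between the control arrays exceeded that within either hairpin. Its change was 0.27 ± 0.17 (adjusted p = 0.694). Of the remaining enzymes, Mvd had -0.30 ± 0.14, Fdps -0.31 ± 0.19, Mvk -0.05 ± 0.13 and Ggps1 0.13 ± 0.11. The other probe sets of Ggps1 disagreed in direction, with -0.26, 0.17 and -0.24.

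The enzymes from squalene to cholesterol lay lowest as a group, with a median of -0.30 over 11 genes and 9 below 0. For 6 of the 11, all knockdown arrays lay below both control arrays, as they did for 10.6% of all genes. Hsd17b7, a ketosteroid reductase of the demethylation steps, had levels of 7.15 and 7.11 in shControl, 6.68 and 6.65 with shRNA1 and 6.45 and 6.44 with shRNA2. Replicates differed little in each of these groups, and the groups did not overlap. Its change of -0.57 ± 0.13 with both hairpins had the smallest adjusted p of any member in that comparison, 0.210. A second probe set of the gene had -0.41.

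Sc5d, the sterol C5 desaturase, had levels of 7.83 and 7.76 in shControl, 7.42 and 7.07 with shRNA1 and 7.45 and 7.13 with shRNA2. Both hairpins lay below the controls by a similar amount, and replicate 2 of each was the lower. The change was -0.53 ± 0.15 (adjusted p = 0.387), and a second probe set of low mean level, 3.95, had -0.02. Cyp51, the lanosterol demethylase, had levels of 8.29 and 8.07 in shControl, 7.60 and 7.65 with shRNA1 and 7.88 and 7.78 with shRNA2. Every knockdown array lay below the controls, shRNA1 below shRNA2. Its change was -0.45 ± 0.12 (adjusted p = 0.321), and its other probe sets had -0.29 and -0.35.

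Nsdhl, which removes a carboxyl group in the same demethylation, had levels of 8.61 and 8.56 in shControl, 8.22 and 8.03 with shRNA1 and 8.44 and 8.08 with shRNA2. Its knockdown arrays lay below the controls without overlap, with a change of -0.39 ± 0.13 (adjusted p = 0.483). Sqle, squalene epoxidase, a rate-limiting enzyme of this branch, had levels of 9.85 and 9.82 in shControl, 9.56 and 9.40 with shRNA1 and 9.68 and 9.46 with shRNA2, again without overlap. Its change was -0.31 ± 0.12 (adjusted p = 0.548).

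Ebp and Tm7sf2 lay above 0. Ebp, the sterol isomerase, had levels of 9.02 and 9.10 in shControl, 9.56 and 9.46 with shRNA1 and 9.27 and 9.02 with shRNA2. The shRNA1 arrays were higher than the controls, and the shRNA2 arrays overlapped them. Its change was 0.27 ± 0.19 with both hairpins and 0.45 ± 0.22 with shRNA1 (adjusted p = 0.542). Tm7sf2, a sterol C14 reductase, had levels of 6.47 and 6.65 in shControl, 6.49 and 6.64 with shRNA1 and 6.62 and 6.86 with shRNA2, and the groups overlapped. The others of this group were Msmo1 with -0.30 ± 0.16, Lss with -0.23 ± 0.12, Fdft1 with -0.15 ± 0.13 and Dhcr7 with -0.14 ± 0.15. Other probe sets disagreed in direction for Lss (0.07 and -0.38) and for Fdft1 (-0.25, 0.05 and 0.16). The last 2 of Fdft1 had mean levels of 4.71 and 4.57, against 10.5 for the one used. That one had a suffix for probes that may match other transcripts.

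**Figure D2:**
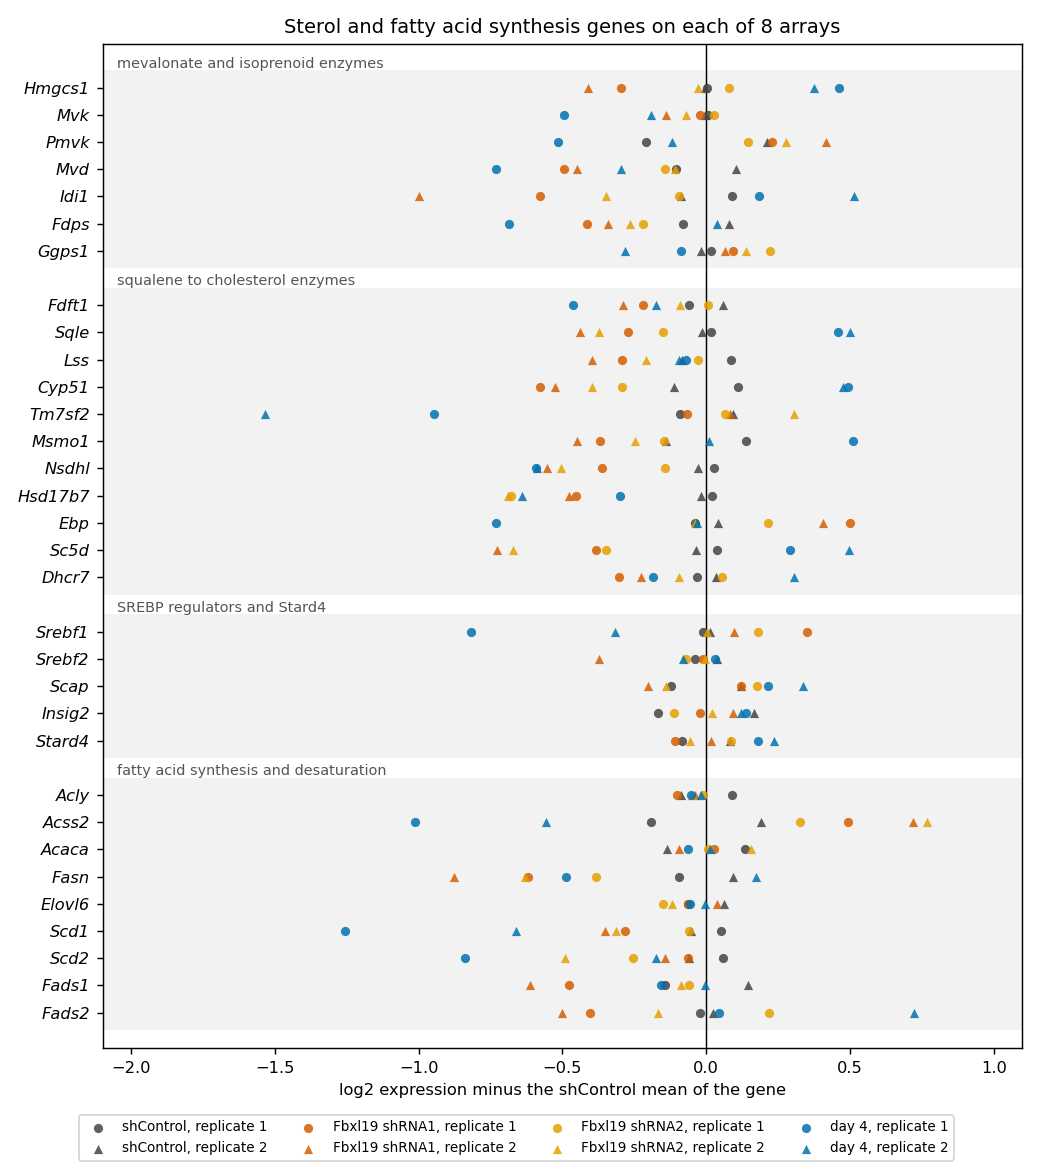
Each of the 32 measured members is a row, and each point is 1 array, placed at its log2 level minus the gene's shControl mean, with circles for replicate 1 and triangles for replicate 2. Hsd17b7, Sc5d and Fasn have knockdown points to the left of both control points, Acss2 has them to the right, and Tm7sf2 has both day 4 points to the left of all others.

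The SREBP regulators lay near 0. Over the 5 measured genes of this group, which includes the sterol carrier Stard4, the median was -0.011. Srebf2, the regulator of sterol genes, had -0.12 ± 0.13, and Srebf1, which favours fatty acid genes, had 0.16 ± 0.16. Scap, the escort of the precursors, had -0.01 ± 0.15, Insig2, which retains Scap, had -0.00 ± 0.13, and Stard4 had -0.02 ± 0.12. A second probe set of Stard4 had -0.38. For none of the 5 did all 4 knockdown arrays lie on 1 side of both control arrays. Of all genes, 10.6% lay below in this way and 9.53% above. Both shRNA1 arrays of Srebf1 lay above the controls (9.64 and 9.39 against 9.28 and 9.31), as did those of 20.4% of all genes. Whether the regulators differ from the enzymes was not tested.

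Of the 9 measured genes of fatty acid synthesis and desaturation, 7 lay below 0 with both hairpins averaged (median -0.21). Fasn, the fatty acid synthase, had levels of 9.84 and 10.03 in shControl, 9.31 and 9.06 with shRNA1 and 9.55 and 9.30 with shRNA2. All knockdown arrays lay below the controls, and replicate 2 of each hairpin was the lower. Its change of -0.63 ± 0.19 was the largest of any member in this comparison (adjusted p = 0.419). Acss2, which makes acetyl-CoA from acetate, had levels of 6.02 and 6.40 in shControl, 6.70 and 6.93 with shRNA1 and 6.53 and 6.98 with shRNA2. Every knockdown array lay above the controls, with a change of 0.58 ± 0.19 (adjusted p = 0.464), and its second probe set had 0.62.

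The desaturases differed in which hairpin lay lower. Fads1, a front-end desaturase of polyunsaturated fatty acids, had levels of 7.81 and 8.10 in shControl, 7.48 and 7.34 with shRNA1 and 7.90 and 7.87 with shRNA2. Its shRNA1 arrays were below the controls (-0.54 ± 0.15, adjusted p = 0.260), and its shRNA2 arrays lay between them. Fads2, the companion enzyme, had 7.77 and 7.82 in shControl, 7.39 and 7.29 with shRNA1 and 8.01 and 7.63 with shRNA2, with the same arrangement except that the shRNA2 arrays lay on both sides of the controls.

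Scd1, a stearoyl-CoA desaturase, had 9.90 and 9.79 in shControl, 9.57 and 9.50 with shRNA1 and 9.79 and 9.53 with shRNA2, a change of -0.25 ± 0.17, and its second probe set had -0.45. Its paralogue Scd2 had 11.96 and 11.84 in shControl, 11.84 and 11.76 with shRNA1 and 11.65 and 11.41 with shRNA2, a change of -0.24 ± 0.18, and its other probe sets had -0.62 and -0.26. In both genes all knockdown arrays lay below the controls, the nearest with hardly a gap, and probes of such close paralogues may read each other's transcripts. Acly had -0.05 ± 0.11, Elovl6 -0.07 ± 0.11 and Acaca 0.02 ± 0.13. Of the probe sets of Acly, that used had a suffix for probes that may match other transcripts, and 2 others had -0.14 and -0.44.

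Taken singly, the hairpins share the control arrays, so their values are given side by side. With shRNA1 no member was called, where 30 of all genes (0.242%) were, and 12 members had an unadjusted p under 0.05, against 9.82% of all genes. Both shRNA1 arrays lay below both controls for 19 members (59.4%), against 23.0% of all genes, and above for 5, against 20.4%. The median was -0.26, and -0.35 over the 18 sterol enzymes. With shRNA2, limma called 0 members and 0 genes in all (0%). At an unadjusted p under 0.05 there were 5 members, against 5.10% of all genes. The arrays lay below both controls for 13 members (40.6%), against 17.8%, and above for 2, against 15.4%. The median was -0.044, and -0.12 over the sterol enzymes.

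The lowest values by hairpin were of different genes in part. With shRNA1 they were Idi1 (-0.79 ± 0.19), Fasn (-0.75 ± 0.22) and Sc5d (-0.56 ± 0.17), and the smallest adjusted p, 0.197, was that of Idi1 and Cyp51. With shRNA2 they were Hsd17b7 (-0.68 ± 0.15), Sc5d (-0.51 ± 0.17) and Fasn (-0.51 ± 0.22), with adjusted p of 0.338, 0.881 and 0.969. On the upper side Acss2 had 0.61 ± 0.22 with shRNA1 and 0.55 ± 0.22 with shRNA2, Ebp had 0.45 ± 0.22 and 0.09 ± 0.22, and Pmvk had 0.32 ± 0.19 and 0.21 ± 0.19. The shRNA2 value of Pmvk rested on shControl replicate 1, without which it was -0.00067.

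**Figure D3:**
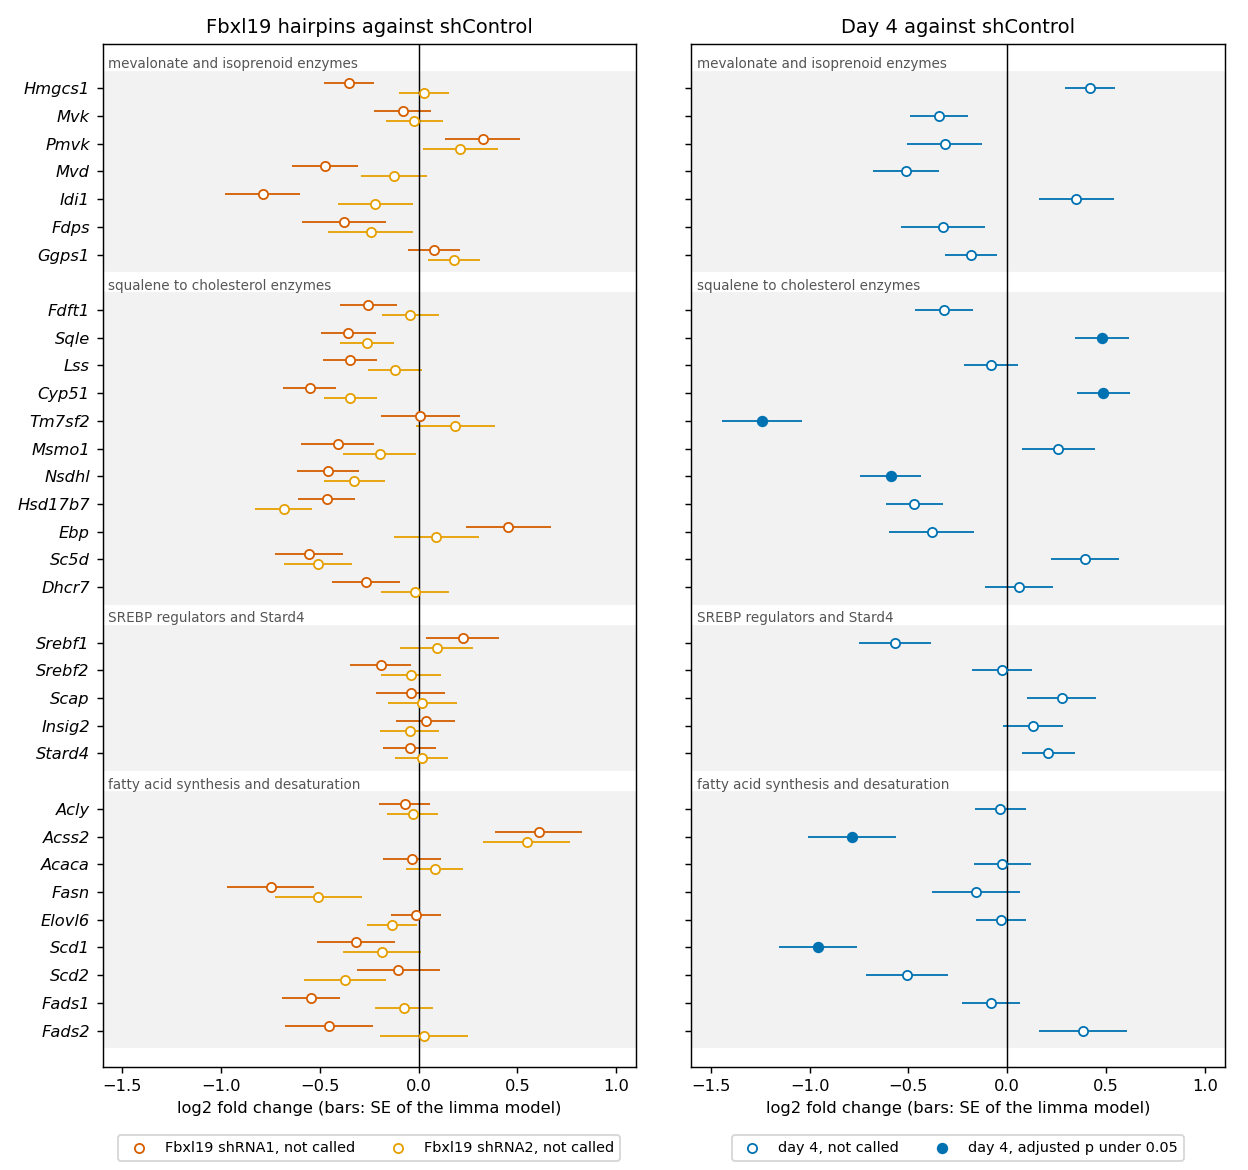
The log2 change of each measured member against shControl is plotted with its SE as a bar, for shRNA1 and shRNA2 on the left and for day 4 on the right, and filled points passed an adjusted p of 0.05. No hairpin point is filled, and the 6 filled points of day 4 are Sqle and Cyp51 above 0 and Tm7sf2, Nsdhl, Acss2 and Scd1 below it.

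The hairpins were compared with each other directly, without the control arrays in the difference. No member was called, where 13 of all genes (0.105%) were, and 3 members had an unadjusted p under 0.05, against 5.15% of all genes. The median of shRNA2 minus shRNA1 was 0.12, and 8 of 32 members lay below 0. The shRNA2 arrays lay above both shRNA1 arrays for 12 members, against 21.9% of all genes, and below for 4, against 21.7%. The order shRNA1, shRNA2, shControl from lowest to highest mean held for 17 of 32 members (53.1%) and for 22.9% of all genes.

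Idi1 differed most, by 0.57 ± 0.19 (95% interval 0.14 to 1.00, adjusted p = 0.676). Fads2 differed by 0.48 ± 0.22 (interval -0.03 to 0.98) and Fads1 by 0.47 ± 0.15 (interval 0.14 to 0.80, adjusted p = 0.580, the smallest of any member). Hmgcs1 had 0.38 ± 0.13. Lower with shRNA2 were Ebp (-0.37 ± 0.22, interval -0.85 to 0.12), Scd2 (-0.27 ± 0.21) and Hsd17b7 (-0.22 ± 0.15, interval -0.55 to 0.11). The intervals of Idi1, Fads1 and Hmgcs1 exclude 0 before adjustment, and none of the differences passed it.

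On day 4 of differentiation 6 of the 32 members were called against shControl, a share of 18.8% beside 16.4% of all genes (2033). Cyp51 and Sqle rose, and Tm7sf2, Scd1, Acss2 and Nsdhl fell. Among all genes 7.67% rose and 8.73% fell, so the members' counts are near the background in both directions. The median change of the members was -0.083, with 21 of 32 below 0. Day 4 arrays lay above both controls for 8 members (25%), against 24.1% of all genes, and below for 11 (34.4%), against 26.3%. The 2 day 4 arrays differed from each other more than those of the other groups. The SD over members of replicate 2 minus replicate 1 was 0.35, against 0.17 to 0.19 in the other groups.

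Among the 7 mevalonate enzymes none was called (median -0.32), where 16.4% of all genes were. Hmgcs1 had day 4 levels of 11.63 and 11.54, above both controls, with a change of 0.42 ± 0.13 (adjusted p = 0.0561), and its other probe sets had 0.75, 0.68 and 0.20. Idi1 had 10.88 and 11.21, a change of 0.35 ± 0.19, and its second probe set had 0.67. Mvd had -0.51 ± 0.17 (adjusted p = 0.0707), and Pmvk, at 7.75 and 8.15, had -0.32 ± 0.19.

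Between squalene and cholesterol 2 genes rose and 2 fell of 11, where 7.67% and 8.73% of all genes did. Cyp51 rose by 0.49 ± 0.13 (1.40-fold, adjusted p = 0.0393), with day 4 levels of 8.67 and 8.65, above every undifferentiated array. Its other probe sets had 0.57 and 0.52. Sqle rose by 0.48 ± 0.14 (1.39-fold, adjusted p = 0.0451), with 10.29 and 10.34, also above every undifferentiated array. Sc5d had day 4 levels of 8.09 and 8.30, above the controls, and a change of 0.39 ± 0.17 that was not called (adjusted p = 0.170).

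Tm7sf2 had day 4 levels of 5.61 and 5.02, where no undifferentiated array was below 6.47. It fell by 1.24 ± 0.20 (2.36-fold lower, adjusted p = 0.00322), the largest change and the smallest adjusted p of any member. Nsdhl had 7.994 and 7.997 on day 4, below both controls but close to the lower knockdown arrays, and fell by 0.59 ± 0.16 (adjusted p = 0.0321). Hsd17b7 had 6.83 and 6.49, a change of -0.47 ± 0.15 (adjusted p = 0.0596), and its second probe set had -0.03. Ebp had 8.33 and 9.03, of which only replicate 1 lay apart from the controls.

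None of the 5 genes of the regulator group was called on day 4, where 16.4% of all genes were. Srebf1 had -0.57 ± 0.18 (limma adjusted p = 0.0701), Srebf2 -0.03 ± 0.15, Scap 0.28 ± 0.17, Insig2 0.13 ± 0.15 and Stard4 0.21 ± 0.14. Other probe sets disagreed in direction for Insig2 (-0.30 and 0.17), Stard4 (-0.27) and Srebf2 (0.04). Of the 9 fatty acid genes 0 rose and 2 fell, where 7.67% and 8.73% of all genes did. Scd1 had day 4 levels of 8.59 and 9.19 and fell by 0.96 ± 0.20 (1.94-fold lower, adjusted p = 0.0109), and its second probe set had -0.89. Acss2 had 5.19 and 5.65 and fell by 0.79 ± 0.22 (adjusted p = 0.0415), with -1.44 at its second probe set. Acss2 thus lay above the controls under both hairpins and below them on day 4.

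Other fatty acid genes varied between the day 4 arrays. Fasn had 9.44 and 10.11, a change of -0.16 ± 0.22, with replicate 1 below the controls and replicate 2 above them. Scd2 had 11.06 and 11.72, a change of -0.51 ± 0.21, and its other probe sets had -1.02 and -0.90. Fads2 had 7.84 and 8.52 and Fads1 7.80 and 7.95, with changes of 0.38 ± 0.22 and -0.08 ± 0.15.

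Most of the day 4 calls lay close to the threshold and were lost when single arrays were left out. Tm7sf2 was called without any one of the 8 arrays. Scd1 lost its call without either shControl array (adjusted p = 0.0644 and 0.0652), and Acss2 without either shControl array, either shRNA1 array or day 4 replicate 1 (up to 0.242, without shControl replicate 2). Nsdhl lost it without any one array other than those of shRNA2, Cyp51 without any one but shControl replicate 1, and Sqle without any one of the 8, with adjusted p of up to 0.106, 0.144 and 0.138. The count was 1 without shControl replicate 2, 2 without shControl replicate 1, 2 without either shRNA1 array and 2 with only the compared groups fitted. Directions of the 6 genes did not change under these settings. Set against the mean of all 3 undifferentiated groups, which includes the hairpins, 10 members were called (22.8% of all genes were). Of these 5 were higher: Hmgcs1 by 0.53, Idi1 by 0.69, Sqle by 0.69, Cyp51 by 0.78 and Sc5d by 0.75. The 5 that were lower were Tm7sf2 (-1.31), Acss2 (-1.17), Scd1 (-0.79), Srebf1 (-0.67) and Ebp (-0.56), and Nsdhl (-0.33, adjusted p = 0.101) was not called.

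Around the members, 133 genes of 8 related lists were examined, and 102 were measured. None was called in the hairpin comparisons, where at most 0.242% of all genes were. On day 4 the list of fatty acid oxidation had 10 genes that fell and 1 that rose of 21 (median -0.37), where 8.73% of all genes fell and 7.67% rose. Slc25a20, the mitochondrial carnitine carrier, had levels of 9.43 and 9.55 in shControl and 7.99 and 7.78 on day 4 and fell by 1.61 ± 0.13 (adjusted p = 8.75e-05). Cpt1a, which commits fatty acids to entry, fell by 1.96 ± 0.25 and the dehydrogenase Acadm by 1.45 ± 0.13 (adjusted p = 0.000975 and 0.000114). Acadl, the long-chain dehydrogenase, rose by 1.91 ± 0.22 (adjusted p = 0.000553), with day 4 levels of 10.19 and 9.54. The count of called genes, 11, was 4 without shControl replicate 2, 7 without either shRNA1 array or with array weights, and 5 with only the compared groups fitted.

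Of the other genes of fatty acid synthesis and elongation, 9 rose and 3 fell of 26 (median 0.31), against the same shares of all genes. Hacd1, a dehydratase of the elongation cycle, had levels of 7.47 and 7.61 in shControl and 9.62 and 9.36 on day 4 and rose by 1.95 ± 0.14 (adjusted p = 4.78e-05). Acsl4, which activates arachidonate, rose by 1.40 ± 0.19, malic enzyme Me1 by 1.21 ± 0.16 and Mid1ip1, an activator of acetyl-CoA carboxylase, by 1.19 ± 0.20. This list held 6 called genes without shControl replicate 2 and 7 with only the compared groups fitted. Cholesterol efflux had 2 genes that fell of 5, where 8.73% of all genes fell. Abca1, with 6.85 and 7.27 in shControl and 5.06 and 4.54 on day 4, fell by 2.26 ± 0.21 (limma adjusted p = 0.000154). Abcg1 fell by 0.84 ± 0.22 (adjusted p = 0.0288).

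In the remaining lists 0% to 16.7% of the genes were called on day 4, beside 16.4% of all genes. Hsd3b7, a bile acid enzyme, fell by 1.68 ± 0.34, the 1 call of 6 other sterol genes. Gramd1a, a sterol transporter, fell by 1.29 ± 0.25, the 1 call of 13 genes of lipoprotein uptake and trafficking. Of 18 glycerolipid genes Agpat3 rose by 0.48 ± 0.12 and Lpin1 fell by 0.56 ± 0.12. None was called of 5 other genes of SREBP processing and of 8 of other isoprenoid products. Of the 8 pluripotency markers 5 fell on day 4, Nanog by 1.70 ± 0.13 and Zfp42 by 2.84 ± 0.45, while Pou5f1 had -0.25 ± 0.14 (adjusted p = 0.281). The trophoblast markers had a mean level of 5.55 and 5.69 on day 4, 3 of 6 having risen and 1 fallen, and the part of these cell states in the lipid genes was not tested.

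**Figure D4:**
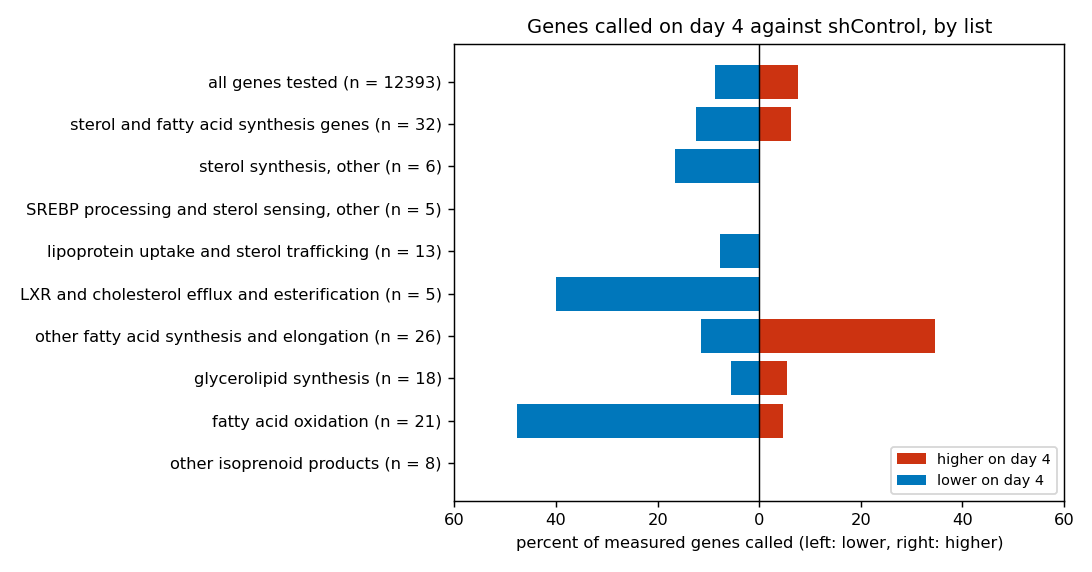
Bars give the percent of measured genes of each list called higher (right) or lower (left) on day 4 against shControl, for all genes, the 32 members and the 8 related lists. Fatty acid oxidation has 10 of 21 genes on the lower side and 1 on the higher, and other fatty acid synthesis and elongation has 9 of 26 on the higher side and 3 on the lower.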

How the data were processed

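Values for each probe set were deposited on the log2 scale by the authors, who used RMA according to the submitters' processing notes. Its version, and whether it was run on all 8 arrays at once, is not given in the sources used here. The labels name a Cy3 dye, the design text an Affymetrix array. Of 22690 probe sets, 64 array controls were left out; 20380 had 1 symbol and 691 several, and 20351 were matched by gene identifier to RefSeq names (GRCm38.p6). The brightest probe set over the 8 arrays was kept per gene, giving 12393 genes.

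A mean for each of 4 groups was fitted with limma 3.58.1 in R 4.3.3 (lmFit, eBayes; 4 residual degrees of freedom), with Benjamini-Hochberg adjustment over all genes; the fit was tested on simulated data. The 5 comparisons were both hairpins, each hairpin and day 4 against shControl, and shRNA2 against shRNA1. Members and lists were chosen with earlier results of these data known. Array values are given for members called in any comparison and for the 3 largest rises and falls in each; of other lists, up to 4 called genes each are named. Precision is limited by the number of arrays. The alternatives tried were every probe set, probe set means, the dimmest 30% left out, trended and robust eBayes, only the compared groups, array weights, repeated quantile normalization, median centring, a replicate block, each array left out, and day 4 against all undifferentiated groups.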

Additional observations from a re-analysis of the deposited data

How the results depend on the processing

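No member was called in any hairpin comparison under any alternative run. The members' median moved for shRNA1 from -0.26 to -0.20 with quantile normalization repeated, and ranged from -0.31 to -0.21 with single arrays left out. That of shRNA2 minus shRNA1 ranged from 0.079 to 0.18 (the highest without shRNA2 replicate 2), and that of day 4 from -0.13 to -0.012 (the highest without day 4 replicate 1), with 0.0084 against all undifferentiated groups. Pmvk with shRNA2 ranged from -0.00067 to 0.42, the ends being those without shControl replicate 1 and replicate 2. The day 4 count of 6 members was 2 with only the compared groups fitted, 2 with array weights, 10 against all undifferentiated groups and 1 to 9 with single arrays left out; the cause was not tested. Of the other values of named members under the alternatives, 489 kept their direction and side of the threshold, 39 lost a call and 5 gained one.

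The replicate block left 0 members called for both hairpins (median -0.16), and over all genes it called 22 for both hairpins where 9 were called without it and 49 for shRNA1 against 30. The labels say nothing of what same-numbered arrays share. Replicate differences over genes correlated at 0.26 for shRNA1 with shControl, 0.23 for shRNA2 with shControl and 0.50 between hairpins, and day 4 gave 0.07, -0.02 and -0.08 with shControl, shRNA1 and shRNA2. With 2 numbers this does not settle whether they pair the arrays. With 2 arrays a group, single arrays weigh heavily. Arrays have no background measure here, and dim genes such as Acaca have no firm level.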
